A study of Mus musculus with 2 samples.

Results

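Genes that mark active Wnt signaling and intestinal stem cells, namely Lgr5, Axin2, Ascl2, Nkd1, Notum, Rnf43, Znrf3, Sox9, Myc and Ctnnb1, were followed in single cells of colitis-associated colon tumors (CACs). They were chosen by gene symbol, and all 10 were found among the 32291 genes of the table. Each gene was described in 11 annotated cell types of both libraries. The epithelial cells were also split by whether an mRNA molecule of the proliferation marker Mki67 was captured. The study asked what deletion of Mir34a in myeloid cells does to these tumors. Control mice carried floxed Mir34a alleles (Mir34a_F/F), and in the other group (Mir34a_Mye_KO) the same floxed alleles were combined with LysM-Cre, which is expressed from the Lyz2 locus in macrophages, neutrophils and some dendritic cells, so that Mir34a of the tumor epithelium itself is not the target. Both groups were on a C57Bl/6 background, were 6 to 10 weeks old at the start, and received azoxymethane (AOM, a carcinogen) at 10 mg/kg and 3 periods of dextran sodium sulfate (DSS, which damages the colon epithelium) in the drinking water, at 2.5% and in the last period at 2% for 5 days each, until sacrifice on day 110. For each genotype 6 to 8 tumors of 3 mice were pooled into 1 library, so values of the libraries were set side by side with no test. Each interval given is a 95% interval for counting error, and differences among mice are not part of it.

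Wnt ligands bind Frizzled and Lrp5/6 receptors and thereby stop a complex of Apc, Axin and Gsk3b from marking β-catenin, the product of Ctnnb1, for degradation. Stabilized β-catenin enters the nucleus and, with Tcf/Lef factors, switches on a set of target genes. In the colon this activity is highest at the crypt base, where Lgr5+ stem cells divide, and it declines as cells move up, stop dividing and turn on Krt20, a keratin of differentiated colonocytes. Among the genes followed here Lgr5 is a receptor for R-spondins and marks stem cells, and Ascl2 is a transcription factor of the same cells. Axin2, Nkd1, Notum, Rnf43 and Znrf3 are targets that act back on the pathway as inhibitors. Sox9 and Myc are transcription factors of the crypt base and of growing cells, and Ctnnb1 is controlled mainly at the level of its protein.

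In the mouse genome (GRCm38, GENCODE M21) 5 of the 10 genes lie on chromosome 11, namely Znrf3 (chr11:5276324-5444847), Rnf43 (chr11:87662722-87735539), Axin2 (chr11:108920349-108950783), Sox9 (chr11:112782224-112787760) and Notum (chr11:120653788-120661175). The others are Ascl2 (chr7:142966829-142969264), Nkd1 (chr8:88521354-88594884), Ctnnb1 (chr9:120929216-120960507), Lgr5 (chr10:115450311-115587780) and Myc (chr15:61985391-61990374). Lgr5, Ascl2, Notum and Znrf3 are on the minus strand.

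Since the mice differ in Mir34a, the annotated 3′ UTRs of the 10 genes were searched for matches to the seed of miR-34a-5p, to show which of the mRNAs carry a sequence the microRNA could pair with. The RefSeq sequence of the mature microRNA (GRCm38.p6) is given with its seed, bases 2 to 8, in capitals, followed by the sites found, in which capitals mark the matched letters, that is the bases that pair with the seed and, where present, an A opposite base 1 of the microRNA.
mmu-miR-34a-5p: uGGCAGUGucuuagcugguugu
Nkd1, chr8:88592587-88592615 (+): gatttcagtggACTGCCAttgcaccctct
Nkd1, chr8:88593057-88593085 (+): tgtgcagaaatCACTGCCctgctctatgg
Nkd1, chr8:88594040-88594069 (+): ctcagaggggaCACTGCCAcctaccatgtg
Notum, chr11:120654173-120654201 (-): gctggcccactCACTGCCccagggtgact
Notum, chr11:120654081-120654109 (-): ctattctctccCACTGCCtggctagagga
A match was defined as CACTGCC, the complement of bases 2 to 8, or ACTGCCA, the complement of bases 2 to 7 followed by an A, and a site can be both. The longest annotated 3′ UTR of Nkd1 (2732 bases) held 3 matches and that of Notum (432 bases) held 2, while the other 8 genes held none. Of 20775 genes of the table with an annotated 3′ UTR, 21.5% held a match, so 2 of 10 genes is close to the share of all genes. These are sequence matches only.

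The library labelled Mir34a_F/F held 20312 cells with a median of 4787 unique molecular identifiers (UMIs, each standing for 1 captured mRNA molecule), and the library labelled Mir34a_Mye_KO held 18571 cells with a median of 7716. In all 96 barcodes occurred in both libraries, so that 0.494% of cells carried a shared barcode. Of 6 features of the table named for Mir34a or Cre, 4 had no UMI. The primary Mir34a transcript had 133 and 462 UMIs in macrophages of the Mir34a_F/F and Mir34a_Mye_KO libraries, levels of 0.0723 and 0.111 per 10000 UMIs, and a feature joining Cre to Lyz2 had 451 and 172 UMIs, levels of 0.164 and 0.0490. Lyz2 itself, the locus that carries LysM-Cre, had 3892 and 1379 UMIs in macrophages, levels of 1.443 and 0.371, so it was lower in the Mir34a_Mye_KO library together with the joined feature, while the primary Mir34a transcript was not lower. The feature for Cre alone was among the 4 without a UMI, so UMIs of the joined feature were not told apart from those of Lyz2 sequence. The labels were not settled by these features, and every difference below is one between libraries as labelled. Taken as a group, the 11614 and 9865 cells annotated as epithelial cells held UMIs of all 7 epithelial markers tested, as did every other cell type. Epcam was found in 91.1% and 88.9% of the epithelial cells. Their summed level of the 7 markers was 84.8 and 59.2 per 10000 UMIs, against at most 53.3 and 43.6 elsewhere, in erythroid cells. The epithelial cells also differed between the libraries in ways that touch every level below. Besides this marker level, their median mitochondrial share was 11.2% and 18.4%, and the summed level of 3 plasma cell markers was 15.2 and 51.3. The 3 macrophage markers summed to 0.985 and 1.62, the leukocyte marker Ptprc was at 0.552 and 0.852, and 4 markers of regenerative epithelium summed to 17.1 and 11.3. The study states that cells with 25% or more mitochondrial UMIs were removed, but 6600 of the deposited cells (17.0%) exceeded or equaled that value, and 9286 and 6040 epithelial cells lay below it.

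Among the cell types with many cells, most of the Wnt targets were highest in epithelial cells. A level is the number of UMIs of a gene per 10000 UMIs, averaged over cells. Lgr5 had a level of 0.587 (95% interval 0.564 to 0.613, 5927 UMIs) in epithelial cells of the Mir34a_F/F library and 0.560 (0.536 to 0.586, 4943 UMIs) in those of the Mir34a_Mye_KO library. In T cells, macrophages and neutrophils it was between 0.132 and 0.190 in both libraries, below the epithelial intervals. Ascl2 was sparse, with 0.109 (929 UMIs) and 0.0941 (712 UMIs) in epithelial cells and 0.0253 to 0.0540 in T cells, B cells, macrophages and neutrophils. The intervals of neutrophils reached 0.101 and 0.0968 and overlapped the epithelial intervals in both libraries. Sox9, a transcription factor of crypt progenitors, had 1.495 (16155 UMIs) in epithelial cells of the Mir34a_F/F library and 0.956 (8668 UMIs) in those of the other library. Erythroid cells, of which there were only 106 and 30, had 0.839 and 1.02 for Sox9 with intervals reaching 1.73 and 2.51, so they could not be ordered against the epithelial cells.

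Axin2, Nkd1, Notum and Rnf43, feedback inhibitors of the pathway, were also higher in epithelial cells than in T cells, macrophages and neutrophils. Axin2, the scaffold that rebuilds the β-catenin degradation complex, had 1.48 and 1.31 in epithelial cells of the Mir34a_F/F and Mir34a_Mye_KO libraries, against 0.513 and 0.368 in T cells and 0.305 and 0.301 in macrophages. Nkd1, which binds Dishevelled, had 2.12 and 2.05 in epithelial cells, and its interval overlapped that of no other cell type in either library. Notum, a secreted enzyme that removes the lipid of Wnt ligands, had 1.10 and 0.849 in epithelial cells, against 0.474 and 0.336 in neutrophils, while erythroid cells of the Mir34a_F/F library had 1.17 on 19 UMIs. Rnf43, a ubiquitin ligase that clears Frizzled receptors from the cell surface, had 1.91 and 1.45 in epithelial cells, against 0.829 and 0.617 in T cells.

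For the remaining genes epithelial cells did not lead in both libraries. Znrf3, the relative of Rnf43 with the same function, had 1.38 and 1.31 in epithelial cells but 1.24 (1027 UMIs) and 1.99 (4770 UMIs) in B cells and 1.07 and 1.23 in T cells, so that in the Mir34a_Mye_KO library B cells exceeded epithelial cells beyond the counting intervals. Myc had 0.415 and 0.351 in epithelial cells and 0.475 and 0.370 in B cells, with overlapping intervals. Ctnnb1 was measured in every cell type, with 3.69 and 3.18 in epithelial cells, 3.24 and 4.52 in neutrophils and 2.60 and 2.40 in macrophages. In the plot of levels by cell type, the intervals of epithelial cells lie above those of macrophages, neutrophils, mast cells and dendritic cells in both libraries for Lgr5, Axin2, Nkd1, Notum, Rnf43, Znrf3 and Sox9, and not for Ascl2, Myc and Ctnnb1. Endothelial cells, fibroblasts, basophils and erythroid cells were few and have wide intervals.

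**Figure D1:**
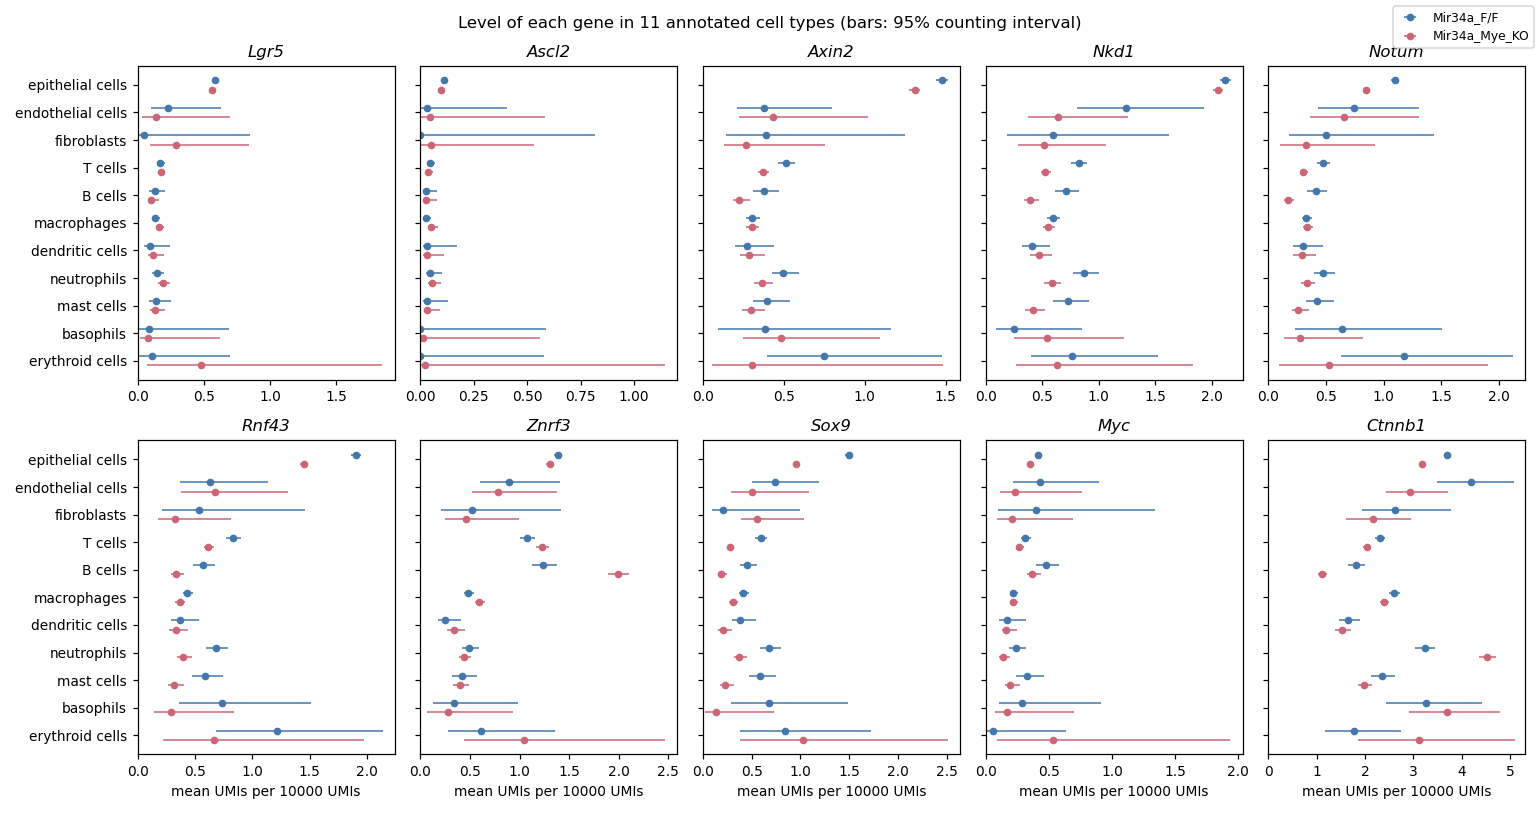
Level of each gene (x axis, mean UMIs per 10000 UMIs) in the 11 annotated cell types (y axis), in blue for the Mir34a_F/F library and red for the Mir34a_Mye_KO library, each with its 95% counting interval. Nkd1 lies at 2.12 and 2.05 in epithelial cells, apart from every other cell type, while Znrf3 reaches 1.99 in B cells and Ctnnb1 4.52 in neutrophils of the Mir34a_Mye_KO library.

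Free RNA released from the abundant epithelial cells can be captured with other cells, so the levels outside the epithelium were set against it. The 7 epithelial markers gave each cell type's share of the epithelial level, which lay between 20.4% and 73.7%, and a gene whose RNA came only from that source would be present at this share of its own epithelial level. For Axin2, the level divided by this value was between 0.604 and 0.965 in the 7 non-epithelial cell types with at least 100 cells in both libraries. For Nkd1 it was 1.06 and 0.89 in T cells and 1.02 and 0.80 in neutrophils of the Mir34a_F/F and Mir34a_Mye_KO libraries, and for Sox9 it was 1.08 and 0.98 in T cells and 1.13 and 1.10 in neutrophils. Over the same cell types Lgr5 lay between 0.600 and 1.08, Rnf43 between 0.769 and 1.46 and Ascl2, from few UMIs, between 0.625 and 1.78. Notum lay highest in endothelial cells of the Mir34a_Mye_KO library, at 2.14 from 23 UMIs. With Epcam alone as the measure of free RNA some ratios were higher. In T cells Axin2 was then at 1.14 (1.035 to 1.26) and 1.11 (1.02 to 1.23). Nkd1 was there at 1.27 (1.17 to 1.38) and 1.02 (0.94 to 1.11). Sox9 was at 1.31 (1.13 to 1.53) and 1.29 (1.10 to 1.55) in neutrophils and at 1.30 and 1.13 in T cells. Where these genes lie at or near 1 by both measures, their level outside the epithelium is not read as expression there. Whether the epithelial RNA in other cells was free or came from cells captured together was not tested.

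In B cells, T cells, macrophages and endothelial cells Znrf3 exceeded the level that free epithelial RNA would give by the 7 markers. Myc did so in most of the 7 cell types and Ctnnb1 in all of them. For Znrf3 the ratio was 2.78 and 7.47 in B cells, 2.12 and 3.22 in T cells, and 1.25 (1.13 to 1.40) and 1.48 (1.37 to 1.62) in macrophages. In endothelial cells it was 1.525 (1.027 to 2.412) and 1.654 (1.095 to 2.926), from 63 and 50 UMIs, but 0.88 and 0.95 in neutrophils. For Myc it was 3.54 and 5.17 in B cells and 2.06 and 2.60 in T cells. It was also above 1 for Myc in macrophages at 1.87 (1.64 to 2.21) and 2.04 (1.81 to 2.39), in mast cells at 2.24 (1.66 to 3.19) and 2.13 (1.71 to 2.96) and in dendritic cells at 1.68 (1.07 to 3.24) and 2.04 (1.56 to 3.06). For Ctnnb1 it was above 1.5 in all 7 cell types and reached 2.18 and 4.003 in neutrophils. Some ratios of the other genes were also off 1 beyond counting error. Above 1 were, among others, Rnf43 in T cells at 1.18 (1.10 to 1.29) and 1.46 (1.37 to 1.58) and Notum in T cells at 1.18 (1.06 to 1.33) and 1.23 (1.10 to 1.39). Below 1 were, among others, Axin2 in macrophages at 0.74 (0.65 to 0.86) and 0.75 (0.67 to 0.86) and Rnf43 there at 0.81 (0.73 to 0.91) and 0.82 (0.73 to 0.93). Expression in a cell type cannot give a ratio below 1, so this measure has an error outside the counting intervals. Ratios near 1, such as those of Znrf3 in macrophages, are given with that limit. In neutrophils of the Mir34a_Mye_KO library Myc lay at 1.09 (0.84 to 1.52).

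**Figure D2:**
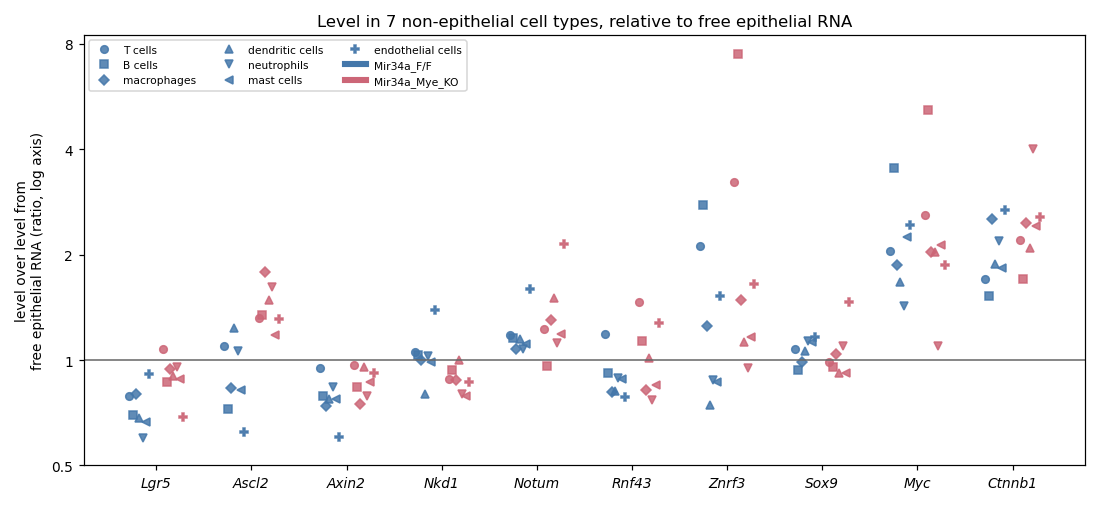
Level of each gene divided by the level that free epithelial RNA would give (y axis, ratio on a log axis), in 7 non-epithelial cell types (symbols) with at least 100 cells per library, in blue for Mir34a_F/F and red for Mir34a_Mye_KO. Axin2 lies between 0.604 and 0.965, while Znrf3 in B cells lies at 2.78 and 7.47 and Ctnnb1 in neutrophils at 2.18 and 4.003.

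The share of cells with a UMI was compared after each cell was thinned to 1000 UMIs, with 627 and 160 shallower epithelial cells left out. Lgr5 was then detected in 4.99% (4.59 to 5.41) of epithelial cells of the Mir34a_F/F library and 4.66% (4.25 to 5.10) of the other, against 1.56% and 1.95% in neutrophils, which do not use this gene. Without thinning these shares were 19.0% and 17.5% in epithelial cells with a median of 5315.5 and 6623 UMIs, and 6.93% and 10.1% in neutrophils with a median of 4107 and 7330 UMIs. The thinned shares of Axin2 were 12.46% and 10.95% in epithelial cells against 5.17% and 3.44% in neutrophils, and those of Nkd1 were 15.7% and 15.3% against 7.31% and 5.58%. Ascl2 was detected in 1.08% (0.898 to 1.30) and 0.845% (0.673 to 1.05) of epithelial cells against 0.390% and 0.372% of neutrophils, whose intervals reach 0.995% and 0.949% and overlap the epithelial ones, so at this depth Ascl2 was not separated from neutrophils in either library. Its shares in T cells, a larger group, were 0.499% (0.280 to 0.822) and 0.341% (0.156 to 0.646), below the epithelial intervals.

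Between cells with and without a Mki67 UMI the 10 genes differed by small log2 ratios, in both directions. A Mki67 UMI was found in 2772 of 11614 epithelial cells (23.9%) of the Mir34a_F/F library and in 2169 of 9865 (21.99%) of the Mir34a_Mye_KO library. These cells had more UMIs than the others, with medians of 8881.5 against 4539 and 9930 against 5766, and levels per 10000 UMIs were therefore compared. Top2a, a proliferation gene not used for the split, was higher in cells with a Mki67 UMI by a log2 ratio of 2.227 and 1.959. Of the 10 genes, none passed a log2 ratio of 0.5 in either direction in either library, where 10.3% and 8.19% of all genes with a mean of at least 0.1 did. The median log2 ratio of the 10 genes was 0.04 and 0.14, beside 0.07 and 0.06 over all genes tested.

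Within this range the genes split. Lgr5 had levels of 0.503 with and 0.614 without a Mki67 UMI in the Mir34a_F/F library, a log2 ratio of -0.29 (-0.40 to -0.17), and 0.515 and 0.572 in the Mir34a_Mye_KO library, -0.15 (-0.29 to -0.01). Nkd1 and Notum were also lower in cells with a Mki67 UMI in both libraries, with log2 ratios of -0.31 and -0.30 for Nkd1 and -0.44 and -0.34 for Notum. Ctnnb1 was lower by less, with -0.12 (-0.17 to -0.08) and -0.09 (-0.14 to -0.03). In the other direction lay Ascl2 (0.37 and 0.41), Myc (0.27 and 0.27), Sox9 (0.23 and 0.26) and Axin2 (0.13 and 0.27), each with intervals above 0 in both libraries. The interval of Axin2 in the Mir34a_F/F library, 0.06 to 0.21, held the median of all genes there, 0.07. The share of all genes with intervals off 0 is not given here. Rnf43 differed by 0.01 in the Mir34a_F/F library and 0.25 in the other, and the intervals of Znrf3 held 0 in both. These small ratios depended on the cells used. In cells with at least 500 genes and under 10% mitochondrial UMIs the ratio of Axin2 in the Mir34a_F/F library was -0.12 and that of Lgr5 in the Mir34a_Mye_KO library was 0.02, and in the Mir34a_F/F library Sox9 was at 0.01, Myc at 0.02 and Notum, past 0.5, at -0.53. Split by a Top2a UMI instead, the ratios of Lgr5 were -0.08 (-0.20 to 0.04) and -0.16 (-0.29 to -0.02), those of Nkd1 -0.14 and -0.12, those of Notum -0.28 and -0.13 and those of Ascl2 0.44 (0.15 to 0.72) and 0.26 (-0.06 to 0.57). Ctnnb1 in the Mir34a_Mye_KO library was then at -0.02 (-0.07 to 0.04).

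Cells with a UMI of Krt20, the differentiation marker, had lower levels of 9 of the 10 genes in both libraries. A Krt20 UMI was found in 3864 (33.3%) and 3298 (33.4%) epithelial cells. Lgr5 had a level of 0.287 in cells with and 0.737 in cells without a Krt20 UMI in the Mir34a_F/F library, a log2 ratio of -1.36 (-1.49 to -1.24), and 0.261 and 0.710 in the Mir34a_Mye_KO library, -1.45 (-1.59 to -1.30). Nkd1 was lower with a Krt20 UMI by log2 ratios of -1.20 and -1.22, Notum by -1.19 and -1.24, Axin2 by -1.15 and -1.06, Znrf3 by -1.08 and -1.10 and Ascl2 by -0.89 and -1.30. Rnf43 (-0.74 and -0.57), Myc (-0.68 and -0.66) and Sox9 (-0.47 and -0.58) followed with smaller ratios. Ctnnb1 stood apart, with levels of 3.69 and 3.69 in the Mir34a_F/F library and 3.19 and 3.17 in the other, log2 ratios of 0.00 (-0.04 to 0.05) and 0.01 (-0.04 to 0.06). In all, 8 of 10 genes in the Mir34a_F/F library and 9 of 10 in the Mir34a_Mye_KO library were lower by at least 0.5, where 17.2% and 21.0% of all genes tested were. The median was -0.98 and -1.08, beside -0.16 and -0.15 over all genes.

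Cells with a Krt20 UMI differed in depth, with median UMIs of 7804.5 against 4256.5 and 11021 against 4861, and in mitochondrial share, with 12.2% against 10.4% and 22.2% against 14.2%. Within 5 strata of UMIs per cell the log2 ratios of Lgr5 were -1.52 and -1.32 and those of Nkd1 were -1.17 and -1.11. In cells with at least 500 genes and under 10% mitochondrial UMIs, the median of the 10 genes in the Mir34a_Mye_KO library was -0.51, with Lgr5 at -0.80, Axin2 at -0.37 and Myc at -0.15. With the stated limit of 25% the medians were -1.07 and -1.13.

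**Figure D3:**
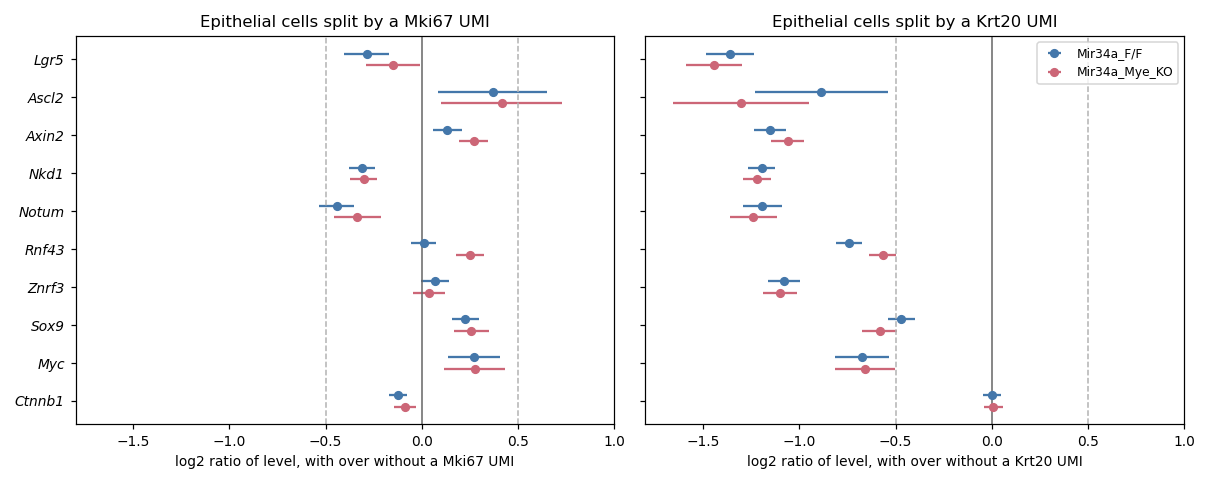
Log2 ratio of the level in epithelial cells with over cells without a Mki67 UMI (left) and a Krt20 UMI (right), in blue for Mir34a_F/F and red for Mir34a_Mye_KO, with 95% counting intervals; dashed lines mark 0.5 in each direction. No gene passes 0.5 in the Mki67 split, while Lgr5 lies at -1.36 and -1.45 and Ctnnb1 at 0.00 and 0.01 in the Krt20 split.

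Cells with a UMI of 1 target had UMIs of the other targets more often than cells without it. In epithelial cells thinned to 1000 UMIs, 129 of 548 cells with a Lgr5 UMI in the Mir34a_F/F library also had a Notum UMI, 23.5% (20.1 to 27.3), against 8.65% (8.12 to 9.21) of cells without Lgr5. In the Mir34a_Mye_KO library 144 of 452 cells with Lgr5 had Nkd1, 31.9% (27.6 to 36.4), against 14.5% (13.8 to 15.2) of cells without it. Over the 56 ordered pairs of the 8 genes other than Myc and Ctnnb1, the median log2 ratio of these shares was 0.76 and 0.70. In each library 52 of 56 pairs were above 0. Each pair of genes is counted in both orders, which share their sign. The same values over pairs of other genes are not given here. For Ctnnb1 as the partner the median was 0.19 and 0.21. Ascl2 was too sparse for this comparison. Of the cells with a Lgr5 UMI, 3 of 548 and 3 of 452 had Ascl2, 0.547% (0.113 to 1.59) and 0.664% (0.137 to 1.93), against 1.11% and 0.854% of cells without Lgr5, so no difference was detectable at this depth. Thinned to 3000 UMIs instead, all 56 pairs lay above 0 in the Mir34a_F/F library, Lgr5 and Ascl2 among them, with 0.23 as the lowest, and 54 of 56 in the Mir34a_Mye_KO library, with medians of 0.69 and 0.81. Among cells without a Krt20 UMI the median over pairs was 0.56 and 0.58.

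**Figure D4:**
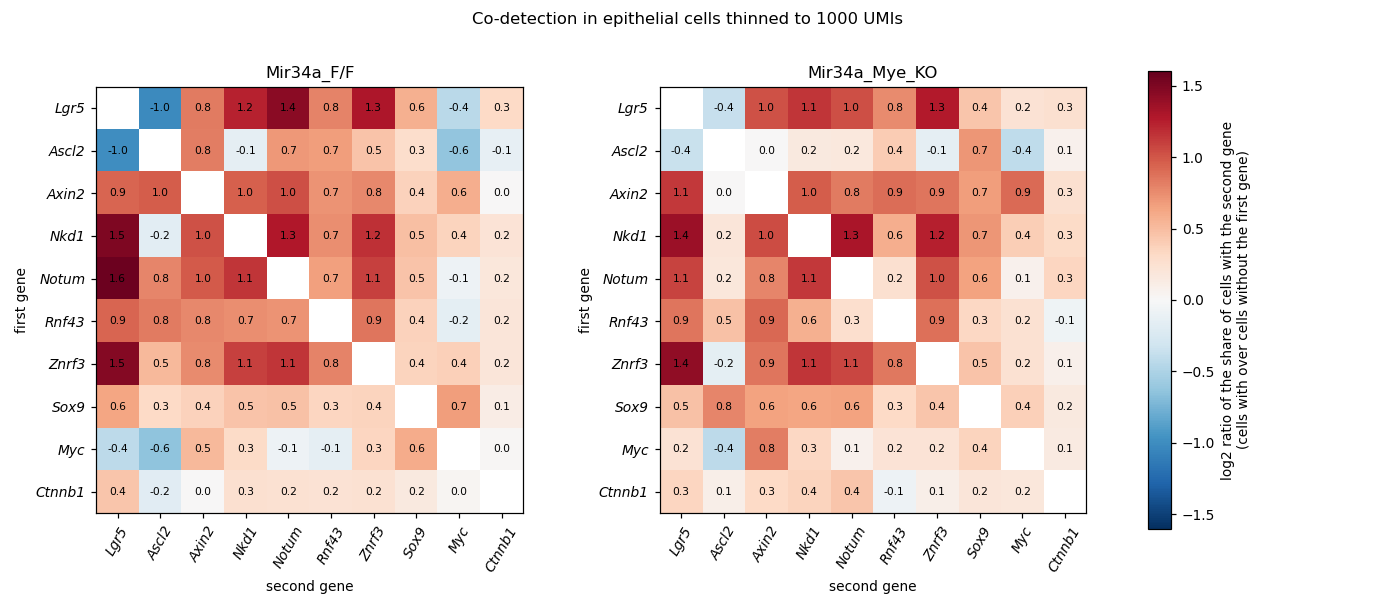
Log2 ratio of the share of epithelial cells with the second gene (columns) in cells with over cells without the first gene (rows), after thinning to 1000 UMIs, for each library; numbers are the ratios and red means found together more often. The highest ratios of each library lie among Lgr5, Nkd1, Notum and Znrf3, with 1.57 for Lgr5 in cells with Notum in the Mir34a_F/F library as the highest, and the medians of Ctnnb1 are 0.19 and 0.21.

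Counted over the 8 targets, 48.2% and 53.4% of thinned epithelial cells had none, 30.9% and 29.6% had 1, and 2.43% (2.15 to 2.74) and 1.78% (1.53 to 2.07) had 4 or more. In neutrophils 69.5% and 77.4% had none, and 0 of 1026 and 1 of 1076 cells had 4 or more, where a count of 0 allows a share of up to 0.359%. The UMIs of Nkd1 and Lgr5 were spread unevenly over epithelial cells, with a variance 1.48 and 1.53 times the mean for Nkd1 and 1.45 and 1.39 times for Lgr5, where evenly spread counts give 1. Those of Ctnnb1 and Myc were closer to even, at 1.08 and 1.12 for Ctnnb1 and 1.08 and 1.04 for Myc.

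Between the libraries, Sox9 was the gene with the largest difference in epithelial cells. Its level was 1.495 in the Mir34a_F/F library and 0.956 in the Mir34a_Mye_KO library, a log2 ratio of -0.64 (-0.70 to -0.59). It was the only one of the 10 genes lower by at least 0.5, and none was higher by 0.5, where 8.57% of 9322 genes tested were lower and 1.89% higher. A count of 1 of 10 genes is close to the share of all genes. The median log2 ratio of the 10 genes was -0.21 and that of all genes tested was -0.22, so the median of the 10 genes was close to that of all genes. With UMIs summed over cells instead of averaged, Notum was also lower by more than 0.5, at -0.62, and Rnf43 was at -0.11. Rnf43 (-0.40) and Notum (-0.37) were below this median with intervals that did not reach it, while Nkd1 (-0.05), Lgr5 (-0.07, with an interval of -0.15 to 0.02) and Znrf3 (-0.08) were above it. Axin2 (-0.17), Ascl2 (-0.21), Myc (-0.24) and Ctnnb1 (-0.21) had intervals that held it.

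The difference in Sox9 was also present in subsets of the same epithelial cells, which are no independent support for it. It was -0.62 in cells with and -0.65 in cells without a Mki67 UMI, and -0.73 and -0.62 in cells with and without a Krt20 UMI. Below 25% mitochondrial UMIs it was -0.49 and the median of the 10 genes was -0.03, with Lgr5 at 0.16, Nkd1 at 0.17, Znrf3 at 0.06 and Axin2 at 0.03. Outside the epithelium Sox9 was also lower in T cells (-1.11), B cells (-1.27), mast cells (-1.36) and neutrophils (-0.87). By the epithelial markers together its level there lay between 0.92 and 1.13 times that of free epithelial RNA. With Epcam alone some ratios were higher, at 1.296 (1.177 to 1.437) and 1.132 (1.004 to 1.306) in T cells of the Mir34a_F/F and Mir34a_Mye_KO libraries. In neutrophils they were 1.311 (1.134 to 1.532) and 1.292 (1.098 to 1.553). In mast cells they were 1.381 (1.105 to 1.777) and 0.99 (0.76 to 1.376), and in B cells 1.068 (0.892 to 1.304) and 0.922 (0.77 to 1.222). The part of the mitochondrial share and of plasma cell and other leukocyte RNA in these differences was not tested. The mix of epithelial subtypes, which the study defined, was not compared here, and its part was not tested either.

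**Figure D5:**
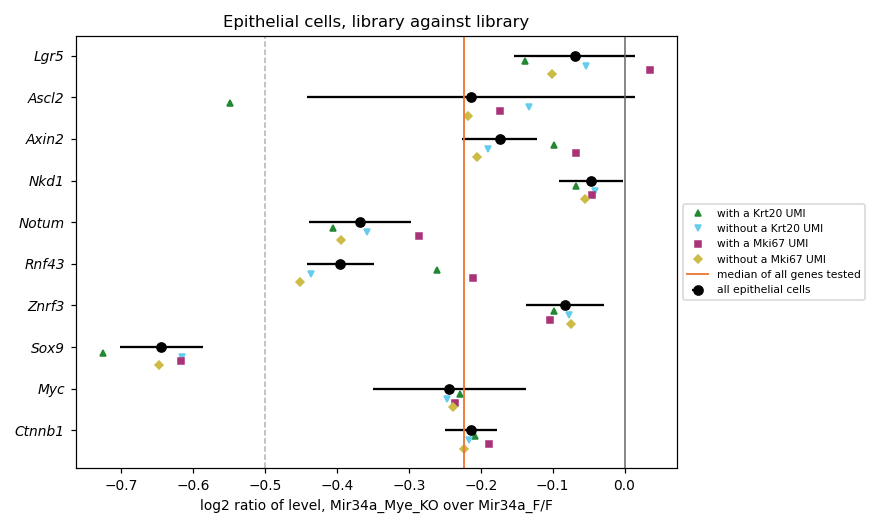
Log2 ratio of the level in epithelial cells, Mir34a_Mye_KO over Mir34a_F/F (x axis), with the 95% counting interval (black), and the same ratio within cells with or without a Krt20 or Mki67 UMI (colored symbols); the orange line marks the median of all genes tested at -0.22 and the dashed line -0.5. Sox9 lies at -0.64 and beyond -0.5 in every subset, while Lgr5, Nkd1 and Znrf3 lie closer to 0 than the median.

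In the myeloid cells in which LysM-Cre acts, Nkd1 and Notum, the genes with miR-34a seed matches, were measured at low levels. Nkd1 had levels of 0.591 (936 UMIs) and 0.554 (1189 UMIs) in macrophages, a log2 ratio of -0.09 (-0.28 to 0.09), and 0.873 and 0.583 in neutrophils, -0.58 (-0.82 to -0.34). Notum had 0.330 and 0.339 in macrophages, 0.04 (-0.20 to 0.28), and 0.474 and 0.336 in neutrophils, -0.50 (-0.84 to -0.16). In dendritic cells the log2 ratios were 0.21 (-0.20 to 0.62) for Nkd1 and -0.03 (-0.63 to 0.56) for Notum. Over these 3 cell types the levels of Nkd1 were 0.80 to 1.02 times what free epithelial RNA gives, and those of Notum 1.08 to 1.51 times. For Notum the ratio was off 1 in macrophages at 1.301 (1.153 to 1.498) and dendritic cells at 1.51 (1.12 to 2.11) of the Mir34a_Mye_KO library. With Epcam alone as the measure of free RNA it was 1.33 and 1.58 in macrophages of the 2 libraries. It was then also above 1 in neutrophils of both, at 1.25 (1.04 to 1.51) and 1.31 (1.11 to 1.59). In dendritic cells of the Mir34a_Mye_KO library it was 1.84 (1.37 to 2.58). With Epcam alone Nkd1 was also above 1, in macrophages at 1.23 (1.12 to 1.36) and neutrophils at 1.19 (1.04 to 1.36) of the Mir34a_F/F library and in dendritic cells at 1.22 (1.01 to 1.53) of the other. Ascl2, which holds no match, had 0.0253 (47 UMIs) and 0.0514 (84 UMIs) in macrophages, a log2 ratio of 1.02 (0.32 to 1.73), at 0.83 (0.56 to 1.62) and 1.78 (1.25 to 2.88) times free epithelial RNA. Ctnnb1, also without a match, was higher in neutrophils of the Mir34a_Mye_KO library, 4.52 against 3.24, a log2 ratio of 0.48 (0.38 to 0.59), and lower in macrophages by -0.12 (-0.20 to -0.04).

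The other genes of the pathway were taken from a list of 87, all in the table, of which 50 had a mean of at least 0.1 in epithelial cells. Between the libraries 0 of 50 differed by a log2 ratio of 0.5 or more in either direction, where 8.57% of all genes tested were lower and 1.89% higher, with a median of -0.26 beside -0.22 over all genes. With UMIs summed over cells instead of averaged, 8 were lower. The share of all genes by that measure is not given here, so this count is not set against a background. In the Krt20 split 20 of 50 were lower by 0.5 or more in both libraries and 5 were higher, counting 21 and 22 lower and 5 and 5 higher in each library, where 17.2% and 21.0% of all genes tested were lower and 10.4% and 12.8% higher. The list held 20 ligands and 9 secreted inhibitors, most of them below a mean of 0.1 and not tested. Wnt10a and Fzd1 had epithelial means of 0.0876 and 0.0908 in the Mir34a_Mye_KO library and entered its Krt20 split only through their higher group. The share of all genes lower in both libraries is not given here. Of the genes tested, 2 of 2 ligands, 4 of 4 secreted inhibitors and 8 of 15 further targets and stem genes were lower in both libraries. So were 4 of 11 nuclear factors, 1 of 6 receptors and 1 of 11 genes of the cytoplasm and destruction complex. Among ligands they were Wnt6 (-1.22 and -1.35) and Wnt10a (-1.004 and -1.294), among receptors the R-spondin receptor Lgr6 (-1.08 and -1.19), and among secreted inhibitors Dkk2 (-1.31 and -1.17), Dkk3 (-1.01 and -1.45), Wif1 (-0.91 and -1.17) and Apcdd1 (-1.31 and -1.21). Of the nuclear factors Lef1 (-1.28 and -1.18), Tcf7 (-0.66 and -0.86), Tle1 (-0.77 and -0.81) and Tle3 (-0.64 and -0.84) were lower, as was the tankyrase Tnks2 (-0.57 and -0.51). Of further targets and stem genes Tnfrsf19 (-1.32 and -0.98), Smoc2 (-1.26 and -1.21), Prox1 (-1.23 and -1.28), Mex3a (-0.96 and -1.08), Cdca7 (-0.95 and -0.95), Etv5 (-0.94 and -1.18), Sp5 (-0.93 and -1.03) and Sox4 (-0.74 and -0.63) were lower.

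The 5 genes higher in cells with a Krt20 UMI, a share no larger than that of all genes, were the Frizzled receptors Fzd1 (1.381 and 1.003) and Fzd5 (0.66 and 0.87), the R-spondin receptor Lgr4 (0.56 and 0.53), and the nuclear factors Tcf7l2 (0.82 and 0.99) and Tle4 (0.71 and 0.84). In the Mki67 split 2 of 50 genes were lower and 3 higher by 0.5 or more in the Mir34a_F/F library, and 0 of 48 lower and 3 higher in the Mir34a_Mye_KO library, where 10.3% and 8.19% of all genes passed 0.5 in either direction. Lgr6 (0.871 and 0.996) and Cdca7 (1.08 and 0.94) were higher in both. The others passed in 1 library, namely Wnt6 (-0.72 and -0.38), Ccnd1 (0.72 and 0.39) and Rgmb (-0.14 and 0.54), and Wnt10a (-0.51) was tested only in the Mir34a_F/F library.

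The pathway genes differed in the cell type with the highest level. Of 38 pathway genes whose level was highest in the same cell type of both libraries on at least 10 UMIs in each, 12 were highest in epithelial cells and 10 in fibroblasts, where by the same rule 18.8% and 10.5% of 7535 genes of the table were. In fibroblasts, of which there were only 57 and 60, Sfrp1, a secreted Wnt antagonist, had levels of 4.68 (104 UMIs) and 8.98 (810 UMIs), and the ligand Wnt5a had 1.53 (65 UMIs) and 0.968 (83 UMIs). Wls, which carries Wnt ligands to the cell surface, had 1.86 and 2.00 in fibroblasts and 1.16 and 0.855 in epithelial cells. In epithelial cells the antagonists Dkk2 (1.64 and 1.27) and Wif1 (1.44 and 1.07) were measured beside Wnt6 (0.322 and 0.273). T cells held the highest levels of Tcf7 (0.910 and 1.02) and Lef1 (1.36 and 1.58), which are also T cell factors.

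Over the 22 groups of cell type and library, the genes whose levels were most like those of a member, by Pearson's r, were Spink4 (0.946) and 2200002D01Rik (0.937) for Notum, Eps8l2 (0.945) and Samd5 (0.930) for Sox9, Myo15b (0.926) and Spink4 (0.924) for Rnf43, and 2010300C02Rik (0.928) and C530008M17Rik (0.923) for Nkd1. For Lgr5 they were Rims2 (0.922) and Utp14b (0.911), and for Axin2 they were Dsc2 (0.914) and Defa21 (0.913). The likeness was lower for Ascl2, with 4930417H01Rik (0.885) and Hmmr (0.850), for Znrf3, with Ralgps2 (0.855) and Chchd10 (0.820), for Myc, with Pdik1l (0.846) and Parp6 (0.840), and for Ctnnb1, with Tnrc18 (0.827) and Lrg1 (0.820). Groups of 1 library share its depth and any free RNA. By Spearman's rho only 5 of these 20 genes would have been named.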

How the data were processed

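CAC cells of 1 library per genotype were profiled with the 10x 3′ kit. Per the labels, reads were counted with Cell Ranger 7.2.0 on mm10. Cell filters and doublet removal (Scrublet) are the authors', and their annotated cell types were used as given, with no further doublet caller. The deposited values are natural log values, ln(1 + UMIs per 10000). Undoing the log gave whole UMIs within 1.5e-10.

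The level is the mean over cells of UMIs per 10000. Intervals were exact binomial for shares and weighted Poisson for levels. Ratio intervals were planned from summed UMIs. When tested on simulated data these were too narrow, and intervals from weighted UMIs were used instead. With 1 library per genotype no test was made.

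Genes named are the 10 members, the pathway genes past a log2 ratio of 0.5, the 2 genes most like each member and the markers. Other pathway genes were named after their values were seen. Members and lists were chosen with earlier results of these data known. Alternatives changed summing, thinning, pseudocount, background and the cells used. In the 250 bases before the RefSeq start (GRCm38.p6), CTTTGA or its complement TCAAAG, a Tcf/Lef core, was found in 0 of 7 windows of the 5 members listed there and in 13.8% of all promoters. Gene models were GENCODE M21. Python 3.11.15, numpy 2.4.6, scipy 1.17.1, pandas 2.3.3 and matplotlib 3.10.9 were used.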

Additional observations from a re-analysis of the deposited data

Results flagged for a closer look

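In 5 cases the library ratio of a gene in another cell type lay on the other side of 0 from that in epithelial cells, both with intervals off 0. These differences between cell types were not tested. The share of such cases over all genes is not given here, so the 5 cases are not read as particular to these genes. In epithelial cells the median log2 ratio of all genes tested was itself -0.22. Znrf3 was higher in the Mir34a_Mye_KO library in B cells by a log2 ratio of 0.68 (1027 and 4770 UMIs), in macrophages by 0.29 (834 and 1668 UMIs) and in T cells by 0.19 (1299 and 2679 UMIs), against -0.08 in epithelial cells. B cells had medians of 3664 and 20852 UMIs and immunoglobulin shares of 30.04% and 40.8% of their UMIs. Sox9 was higher in fibroblasts by 1.41 (0.33 to 2.49), from 10 and 46 UMIs in 57 and 60 cells. Ctnnb1 was higher in neutrophils by 0.48 (1729 and 4159 UMIs).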

How the results depend on the processing

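With 1 library per genotype no replicate could be left out. No paired analysis was possible because the result comes from no test and each group has 1 library. The median library ratio of the 10 genes, -0.21, was -0.0668 in cells with at least 500 genes and under 10% mitochondrial UMIs, -0.0842 with a pseudocount of 1, -0.0982 with totals without mitochondrial and immunoglobulin UMIs, -0.0263 under 25% mitochondrial UMIs and 0.0096 relative to the median of all genes. Directions turned for Nkd1 (0.14 in the strict cells, 0.24 with the neutrophil level subtracted, 0.07 without mitochondrial and immunoglobulin UMIs, 0.17 under 25%, 0.18 relative to all genes), Znrf3 (0.0712, 0.0623 and 0.14 in the last 3), Axin2 (0.0318 and 0.0489 in the last 2), Myc (0.28 with the neutrophil level subtracted) and Ctnnb1 (0.0095 relative to all genes). Lgr5 and Ascl2, whose intervals held 0, also lay above 0 in some, Lgr5 at 0.0518 without mitochondrial and immunoglobulin UMIs, 0.162 under 25%, 0.153 relative to all genes and 0.0355 in cells with a Mki67 UMI, and Ascl2 at 0.0226 in the strict cells and 0.0097 relative to all genes. Subtraction gave no value for Ctnnb1. Myc and Ctnnb1 are widely expressed and had no background cell type assigned. The turn of Myc under subtraction is therefore not read as a dependence of its ratio. Sox9 stayed lower in every alternative, between -0.81 (UMIs summed) and -0.35 (pseudocount of 1). With UMIs summed Notum was at -0.62 and Rnf43 at -0.11.

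The median of the Mki67 split in the Mir34a_F/F library was -0.11 with UMIs summed, -0.21 in the strict cells and -0.0692 under 25%, and in the Mir34a_Mye_KO library 0.0269 with UMIs summed, 0.0345 after thinning, 0.0301 with a pseudocount and 0.0375 under 25%. There Axin2 turned in the Mir34a_F/F library (-0.0364 summed, -0.12 strict) and Lgr5 in the other (0.0189 strict). The median of the Krt20 split was -1.09 summed, -0.45 with a pseudocount and -1.07 under 25% in the Mir34a_F/F library, and -1.49 summed, -1.22 thinned, -0.51 strict, -1.33 under 1% immunoglobulin UMIs, -0.38 with a pseudocount and -0.98 within strata in the other. None of the Krt20 ratios called turned in these alternatives. Co-detection in the Mir34a_F/F library was 0.56 without Krt20 cells, and 5 of 20 most alike genes were the same by Spearman's rho. With UMIs summed 8 pathway genes were lower, a count without the share of all genes beside it. The causes were not tested. Alternatives on the 25% limit, Krt20 strata, totals, shared barcodes, 2000 UMIs, Krt20 subsets and the all-gene median were chosen after seeing the data. Depth limits Ascl2 most, with 929 and 712 epithelial UMIs.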
